A study of Saccharomyces cerevisiae with 55 samples.

Results

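Gene expression was measured in growing budding yeast cells that lack both inositol pyrophosphate kinases, Kcs1 and Vip1. These kcs1vip1 cells in log growth were measured on 3 of the 55 two-colour arrays of the study, chosen as the arrays titled kcs1/vip1 with no stress. On each of them RNA of strain ACY236, the kcs1/vip1 mutant, was set against RNA of the wild type strain ACY044, both from mid-log cultures in YEPD, a rich glucose medium. All strains were MatA haploids of the W303 background, and the mutants were made by homologous recombination. The groups set beside it were the vip1 strain ACY211, the kcs1 strain ACY209, the arg82 strain ACY207 and the ipk1 strain ACY237 in log growth, with 2 arrays each, and kcs1vip1 cells after 20 min in 0.375 M KCl over wild type cells after the same treatment, with 3 arrays. Wild type cells in KCl over wild type cells in log growth were measured on 3 arrays, and kcs1vip1 cells in KCl over kcs1vip1 cells in log growth on 1 array. A second array is titled as that last comparison, but its channel labels give KCl for both RNAs, so it was put in no group. The labels do not say whether arrays of a group came from separate cultures, so the spread behind the p-values may be technical. That spread was estimated within groups over all 54 arrays that entered the model, not from the kcs1vip1 arrays alone.

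Inositol pyrophosphates are small, highly phosphorylated signalling molecules. In yeast, Plc1 releases the starting inositol phosphate from a membrane lipid, Arg82 and Ipk1 phosphorylate it to inositol hexakisphosphate, and Kcs1 and Vip1 add the pyrophosphate groups, while Ddp1 and Siw14 remove them. Their best known roles in yeast are in phosphate sensing, where SPX-domain proteins and the Pho80/Pho85 kinase read them, in energy metabolism, and in the transcriptional response to stress through the Rpd3L histone deacetylase complex.

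The deposited table gave 5633 to 5861 log2 ratios on the 3 kcs1vip1 arrays, with medians between -0.03 and -0.01. Positive values mean more RNA in kcs1vip1 than in wild type. The first array was the broadest, with a standard deviation of 1.04 against 0.929 and 0.842 on arrays 2 and 3. Pearson correlations across genes, which are not independent replicates, were 0.582 between arrays 1 and 2, 0.720 between arrays 1 and 3 and 0.787 between arrays 2 and 3. Of the 5607 genes or probes with a value on all 3 arrays, 54.8% had the same sign on all of them, and the median standard deviation per gene was 0.392. The kcs1vip1 RNA was in Cy5 and the wild type RNA in Cy3 on all 3 arrays, so dye and genotype cannot be told apart within them. The 3 arrays lay on 3 different slides, so their separate values are also the within-slide values.

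Both deleted genes were depleted wherever they were measured. KCS1 was at -7.08 and -7.16 on arrays 1 and 3 and had no value on array 2. VIP1 was at -9.33 on array 1 and had no value on the other arrays, so it was not tested. Both measured KCS1 values and the VIP1 value lie far below 0. KCS1 averaged -7.12 (limma adjusted p = 5.03e-10). Its measured neighbour DAD1, a kinetochore gene, was at 0.94, -1.13 and -0.23 and was not called, and UTP21 beside VIP1 was at -0.18, 0.20 and 0.03 and was not called.

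The rest of the inositol phosphate pathway showed few called differences. PLC1, which encodes phospholipase C, averaged 0.15, ARG82, the inositol polyphosphate multikinase gene, 0.36, IPK1, the inositol pentakisphosphate kinase gene, 0.06, and SIW14, a pyrophosphatase gene, 0.09 on the log2 scale, none of them called. With slide as a fixed block IPK1 was at -1.44 and was called lower (limma adjusted p = 0.0344). DDP1, which encodes a phosphatase that degrades inositol pyrophosphates and polyphosphate, was at -1.13, -2.37 and -0.86. All 3 arrays were below 0, and DDP1 fell by 1.45 on the log2 scale (limma adjusted p = 0.000164). INO1, which encodes the enzyme that makes inositol 3-phosphate from glucose 6-phosphate, was at 1.54, 2.65 and 0.85. It lay above 0 on every array and rose by a mean of 1.68 (limma adjusted p = 1.08e-07).

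Across the table, 2186 of 5761 genes or probes tested differed between kcs1vip1 and wild type (limma, Benjamini-Hochberg adjusted p under 0.05), which is 37.9%. Of these, 1091 (18.9%) were higher and 1095 (19%) lower in kcs1vip1. At 2-fold or more, 495 (8.59%) were higher and 391 (6.79%) lower. Of 2138 called genes with 3 values, 2046 had the same sign on all 3 arrays. A fit of the 3 arrays alone called 1108, and a fit with slide as a fixed block called 557. Of the 216 called genes covered by the rules for naming genes, 108 kept their direction but lost their call with the fixed slide block and 2 turned sign, and 42 lost their call with a dye term and 2 turned sign. The fit of the 3 arrays alone lost 38 of these calls, and leaving out 1 kcs1vip1 array lost 14 to 41.

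**Figure D1:**
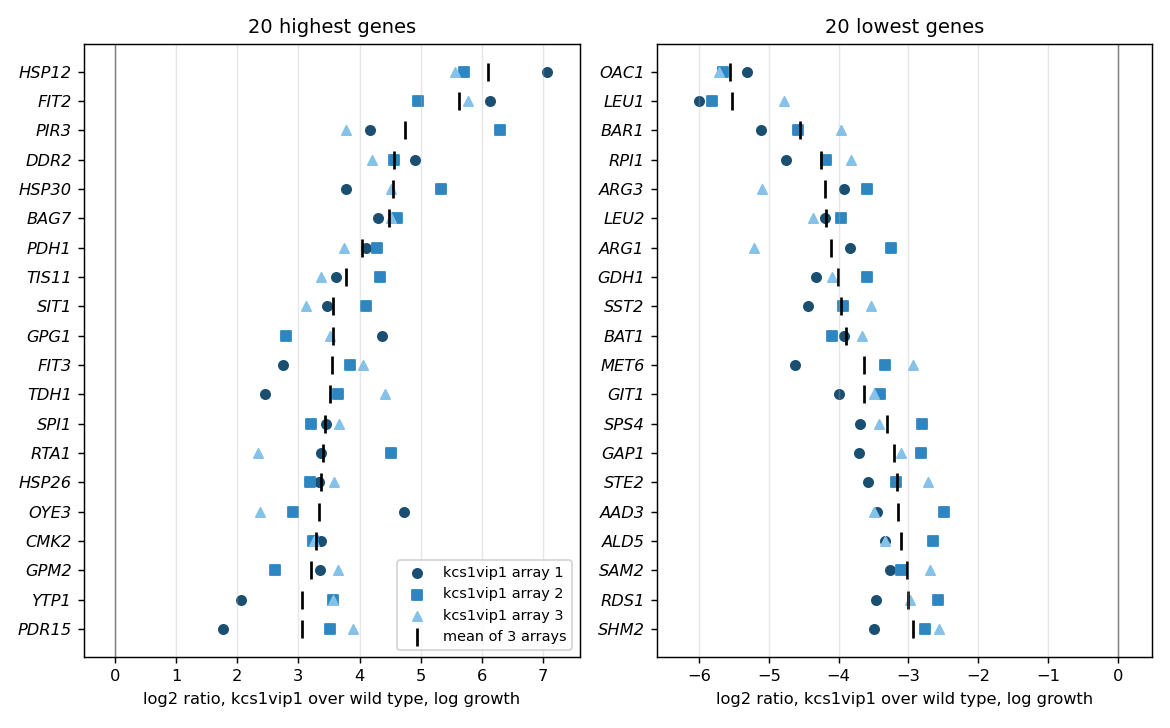
The named genes with the 20 highest and 20 lowest means in kcs1vip1 over wild type in log growth. The x axis is the log2 ratio, each marker is 1 of the 3 kcs1vip1 arrays and the black tick is their mean. HSP12 leads the higher genes at 5.56 to 7.06, and OAC1 leads the lower ones at -5.71 to -5.31.

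Genes of leucine and branched-chain amino acid synthesis fell. OAC1, which encodes a mitochondrial carrier for oxaloacetate and the leucine precursor isopropylmalate, was at -5.31, -5.66 and -5.71. LEU1, the isopropylmalate isomerase gene, was at -6.0, -5.81 and -4.78. Every array of both genes was at or below -4.78, and the means were -5.56 (OAC1, limma adjusted p = 1.99e-17) and -5.53 (LEU1, 1.44e-14).

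Also in this list, BAT1, the mitochondrial branched-chain aminotransferase gene, was at -3.93, -4.09 and -3.67. GDH1, counted in the list although it encodes the NADP-dependent glutamate dehydrogenase that assimilates ammonium, was at -4.32, -3.60 and -4.10. The 3 values of each gene lie within 1 log2 unit of each other, and both fell (limma adjusted p = 1.05e-15 for BAT1 and 1.01e-09 for GDH1). ILV3, the dihydroxyacid dehydratase gene, was at -2.84, -1.95 and -2.22, and ILV2, the acetolactate synthase gene, was at -1.72, -1.84 and -1.79. In all, 12 of the 13 tested genes of the list fell and none rose, with a median of -1.78, beside a median of -0.01 over all 5761 genes or probes tested. The exception was LEU3, the gene of the transcription factor that activates this pathway, at -0.27, 0.11 and -0.27, which was not called. With slide as a fixed block the calls of ILV1, ILV3, ILV5, ILV6, LEU4 and BAT2 were lost.

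LEU2, the isopropylmalate dehydrogenase gene and a common selectable marker of laboratory strains, was at -4.19, -3.97 and -4.37 in kcs1vip1. It was at -0.80 and -1.05 on the vip1 arrays, at -0.89 and -2.50 on the kcs1 arrays, at -1.58 and -1.68 on the arg82 arrays and at -4.49 and -5.12 on the ipk1 arrays. The kcs1vip1 and ipk1 values lie below all values of the other 3 strains. The strains' auxotrophic markers are not given in the labels, so their part in the LEU2 values was not tested. Of the 8 marker genes listed, TRP1 and URA3 were called higher, at means of 0.75 and 0.48, and MET17, LYS2 and ADE2 lower along with LEU2. Without array 1 the calls of TRP1, URA3 and ADE2 were lost (limma adjusted p = 0.151, 0.32 and 0.313). With slide as a fixed block TRP1, URA3, LYS2 and MET17 lost their calls, and ADE2 turned to 0.14 and was not called.

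Genes of sulfur amino acid synthesis also fell. MET6, the methionine synthase gene, was at -4.63, -3.33 and -2.94, and SAM2, an S-adenosylmethionine synthetase gene, was at -3.27, -3.10 and -2.69. Every array was below -2 for both genes (limma adjusted p = 3.86e-10 for MET6 and 1.51e-08 for SAM2). STR3, the cystathionine beta-lyase gene, averaged -2.77, MET2, the homoserine acetyltransferase gene, -2.73, MET17, the homocysteine synthase gene, -2.41 and SAM1 -2.32. Of 24 tested genes 19 fell (79.2%, beside 19% of all genes or probes) and none rose. The median was -1.72, and with slide as a fixed block it was -1.13. With that block STR3 (-2.21, limma adjusted p = 0.062), MET17 (-1.53, 0.173) and SAM1 (-1.16, 0.415) lost their calls. On the separate arrays the list's median was -1.57, -1.45 and -1.61.

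The wider set of amino acid genes under general control is the regulon of the transcription factor Gcn4. Of 35 tested members 25 fell (71.4%) and 1 rose (2.86%), beside 19% and 18.9% of all genes or probes. The list's median was -0.90. SHM2, the cytosolic serine hydroxymethyltransferase gene, was at -3.49, -2.76 and -2.56. HOM2, the aspartate semialdehyde dehydrogenase gene, was at -2.22, -2.08 and -2.08. HIS4 and HIS1 of histidine synthesis averaged -2.04 and -1.99, and LYS9 of lysine synthesis averaged -1.79. All 5 genes lay below 0 on every array and fell (largest limma adjusted p = 4.89e-08). The member that rose was SER3, the phosphoglycerate dehydrogenase gene of serine synthesis, at a mean of 0.87, and GCN4 itself averaged 0.52 and was not called.

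Arginine genes split by their role. The synthesis genes ARG3, encoding ornithine carbamoyltransferase, and ARG1, encoding argininosuccinate synthase, were at -3.92, -3.59 and -5.10 and at -3.84, -3.25 and -5.22. Array 3 was the lowest for both, and both fell (limma adjusted p = 7.92e-11 for ARG3 and 1.80e-09 for ARG1). ARG4, ARG8, CPA1, ORT1 and ARG7 also fell, at means from -2.46 to -0.86. The breakdown genes CAR2, encoding ornithine transaminase, and CAR1, encoding arginase, were at 1.08, 2.97 and 2.01 and at 0.51, 1.67 and 1.34. They lay above 0 on every array and rose (limma adjusted p = 1.44e-05 for CAR2 and 0.00239 for CAR1), CAR1 losing its call without array 2 (adjusted p = 0.0516).

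Transporters and users of nitrogen moved in both directions. GAP1, the general amino acid permease gene, was at -3.71, -2.82 and -3.11, OPT2, an oligopeptide transporter family gene, averaged -2.82, MEP2, an ammonium permease gene, -2.59, and PUT4, the proline permease gene, -2.31. AGP2, whose product is a plasma membrane regulator of polyamine and carnitine transport, was at 1.16, 2.68 and 2.62 and rose (limma adjusted p = 0.000599). Of 25 nitrogen permease genes 9 fell (36%) and 3 rose (12%), beside 19% and 18.9% of all genes or probes. Of 26 genes of nitrogen source breakdown 8 fell, among them DAL1 and DAL3 of allantoin use, both at -2.17, and 6 rose, among them PUT1, the proline oxidase gene, at 1.77 (0.67 with slide as a fixed block, adjusted p = 0.755). Those shares, 30.8% and 23.1%, compare with 19% and 18.9% of all genes or probes.

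**Figure D2:**
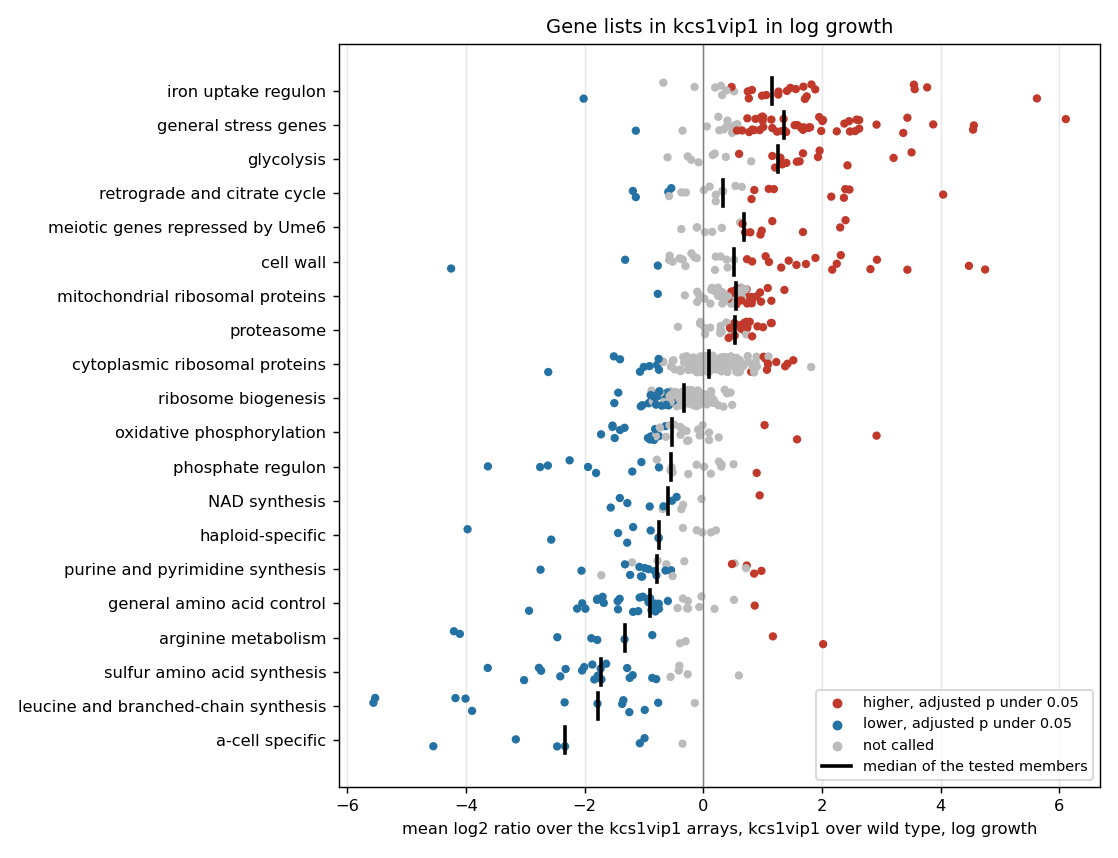
Members of 20 gene lists by their mean log2 ratio over the kcs1vip1 arrays (x axis), with red and blue points for genes called higher and lower and a black bar for the list's median. The general stress list has its median at 1.35 and the a-cell list at -2.33.

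The iron regulon rose. FIT2, which encodes a cell wall mannoprotein that retains siderophore iron, was at 6.14, 4.96 and 5.77. TIS11, also called CTH2, whose product binds and destabilizes messenger RNAs of iron-using proteins, was at 3.61, 4.34 and 3.37. SIT1, a siderophore transporter gene, was at 3.46, 4.10 and 3.13, and FIT3 was at 2.75, 3.85 and 4.05. No array of these 4 genes was below 2.75 (limma adjusted p from 7.59e-14 for FIT2 to 1.95e-08 for TIS11 and SIT1). Of 28 tested genes 20 rose (71.4%), beside 18.9% of all genes or probes. The median was 1.16, with list medians of 0.83, 1.69 and 1.04 on the separate arrays. FET3 and FTR1, the high-affinity iron oxidase and permease genes, averaged 0.77, called higher, and 0.20, not called. The member that fell was ISU2, which encodes a scaffold for iron-sulfur cluster assembly, at -1.42, -2.46 and -2.17, while its paralog ISU1 averaged 1.71 and was called higher.

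General stress genes were high in kcs1vip1 cells without stress. HSP12, which encodes a small membrane-associated heat shock protein, was at 7.06, 5.71 and 5.56. DDR2, a DNA damage and heat responsive gene of the Msn2/4 regulon, was at 4.91, 4.56 and 4.21. HSP30, whose product down-regulates the plasma membrane proton ATPase, was at 3.78, 5.34 and 4.52. Each of the 3 genes was at least 3.78 log2 units above wild type on every array (limma adjusted p = 3.53e-08 for HSP12, 5.14e-05 for DDR2 and 3.93e-09 for HSP30). SPI1, a cell wall protein gene, averaged 3.44, HSP26, a small heat shock chaperone gene, 3.37, and XBP1, a stress-induced repressor gene, 3.88 on 2 arrays. Of 59 tested members 47 rose (79.7%), beside 18.9% of all genes or probes. Only 1, GSY1, encoding a glycogen synthase, fell, and the list's median was 1.35. With slide as a fixed block DDR2 (adjusted p = 0.0743) and HSP26 (adjusted p = 0.128) lost their calls at estimates of 4.83 and 2.92.

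Other stress lists moved less. Of 28 heat shock and chaperone genes 10 rose (35.7%) and none fell, with a median of 0.36. Of all genes or probes 18.9% rose and 19% fell. Beside HSP30 and HSP26, HSP42 averaged 1.54 and HSP82, an Hsp90 gene, 1.18. Of 19 tested osmotic stress genes 10 rose (52.6%) and 3 fell (15.8%). GRE1, a hydrophilin gene induced by stress, was at 1.84, 2.20 and 1.98. Of 29 oxidative defence genes 8 rose (27.6%) and 3 fell (10.3%), with a median of 0.13 and array medians of 0.48, -0.04 and 0.05. Among them OYE3, an NADPH oxidoreductase gene, was at 4.73, 2.91 and 2.38 (limma adjusted p = 2.26e-07), CTT1, the cytosolic catalase gene, averaged 1.95, and ATR1, a multidrug efflux gene, averaged -2.04 (-0.82 with slide as a fixed block, adjusted p = 0.631).

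Of 22 tested glycolysis genes 14 rose (63.6%, beside 18.9% of all genes or probes) and none fell. TDH1, a glyceraldehyde phosphate dehydrogenase gene, was at 2.46, 3.65 and 4.42, and GPM2, a homolog of the phosphoglycerate mutase gene, was at 3.36, 2.61 and 3.65. ENO1 averaged 2.43, PFK26, encoding a 6-phosphofructo-2-kinase, 1.96, TDH3 1.93 and HXK1 1.68. The list's median was 1.26, but it was 0.37 on array 1 against 1.56 and 1.18 on arrays 2 and 3, and 0.64 with a dye term in the model. TDH3 was at 0.43, 2.92 and 2.45, and its call was lost with the dye term (adjusted p = 0.624) and without array 2 (adjusted p = 0.0611). TDH1, TDH2 and TDH3 are close paralogs, and their probes may share signal.

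Genes of the retrograde pathway and the citrate cycle included PDH1, which encodes a mitochondrial 2-methylcitrate dehydratase of propionate breakdown. PDH1 was at 4.11, 4.28 and 3.74. The 3 values are close together, and the mean of 4.04 was called (limma adjusted p = 1.44e-14). MDH2, the cytosolic malate dehydrogenase gene, averaged 2.46, CIT2, the peroxisomal citrate synthase gene, 2.39, and IDH1 and IDH2, encoding the subunits of isocitrate dehydrogenase, 2.37 and 2.16. Of 24 tested genes 9 rose (37.5%) and 4 fell (16.7%), beside 18.9% and 19% of all genes or probes. Of 34 nuclear genes of oxidative phosphorylation 13 fell (38.2%) and 3 rose (8.82%), with a median of -0.53. COR1, a subunit gene of the cytochrome bc1 complex, was at -2.59, -1.30 and -1.28. The 3 that rose were CYC7 (2.92) and COX5B (1.58), which encode the hypoxic isoforms of cytochrome c and of a cytochrome oxidase subunit, and NDE2 (1.03).

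Cell wall genes gave 17 of 35 higher (48.6%) and 3 lower (8.57%), beside 18.9% and 19% of all genes or probes. PIR3, a covalently linked cell wall protein gene, was at 4.17, 6.30 and 3.78, and BAG7, which encodes a Rho1 GTPase-activating protein, was at 4.30, 4.61 and 4.52. SED1, a major cell wall glycoprotein gene, averaged 2.93 and GSC2, the inducible glucan synthase gene, 2.82. RPI1, a gene linked to Ras signalling and to fortification of the wall before stationary phase, was at -4.75, -4.18 and -3.82. PIR3 and BAG7 were far above 0 and RPI1 far below it on every array (limma adjusted p = 3.27e-10, 1.44e-14 and 8.50e-15). Other high genes were CMK2, a calmodulin-dependent kinase gene, at 3.37, 3.24 and 3.25, GPG1, a gene of the Gpr1/Gpa2 sugar-sensing branch, at a mean of 3.56, RTA1 and PDR15 of drug and lipid transport at 3.41 and 3.06, and YTP1, of unknown function, at 3.06.

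Mating genes of a cells were low, although the strains are labelled as MatA. In bulk RNA, fewer cells that express a gene and less RNA per cell cannot be told apart. BAR1, which encodes the protease that degrades alpha factor, was at -5.11, -4.58 and -3.96. STE2, the alpha factor receptor gene, was at -3.58, -3.18 and -2.72. The a-factor genes MFA1 and MFA2 were at -1.04, -3.47 and -2.88 and at -1.61, -3.31 and -2.07. All 4 genes lay below 0 on every array (largest limma adjusted p = 2.23e-07). In all, 6 of 7 a-cell genes fell (85.7%, beside 19% of all genes or probes), with a median of -2.33. The exception was AGA2, the a-agglutinin binding subunit gene, at 0.75, -0.83 and -0.97.

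None of the 4 alpha-cell genes was called. MF(ALPHA)1 and MF(ALPHA)2 had means of -0.52 and 0.22 on 2 arrays, STE3 -0.43 and SAG1 0.10, so no alpha-cell gene stood clear of wild type. Of 13 genes used in both haploid cell types 8 fell (61.5%, beside 19% of all genes or probes) and none rose. SST2, which encodes the regulator that switches off the pheromone G protein, was at -4.44, -3.94 and -3.54 (limma adjusted p = 1.09e-12). FAR1, the pheromone arrest gene, averaged -2.56, GPA1, the G protein alpha subunit gene, -1.44 and HO, the mating type switching endonuclease gene, -1.28. Of 20 pheromone response genes 5 rose (25%) and 4 fell (20%), near the 18.9% and 19% of all genes or probes. PRM5 averaged 1.93 and TEC1, encoding the filamentation transcription factor, -2.14.

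Meiotic genes that Ume6 and the Rpd3L complex repress in growing cells included 9 of 16 tested members called higher and none lower, with a median of 0.68. The share called higher was 56.2%, beside 18.9% of all genes or probes. Of the list's 23 genes on the array only 16 had a value, so the share covers only those. REC104 and REC102, needed for meiotic recombination, were at 2.23, 2.95 and 2.01 and at 2.09, 3.01 and 1.82. Both were above 1.8 on every array (limma adjusted p = 5.51e-09 and 1.06e-06). MEI4 averaged 1.16 and HOP1 0.96, and INO1, described above, belongs to the same list. Subunit genes of the histone deacetylase complexes of Rpd3 and Set3 numbered 20. Of these, 5 fell (25%) and none rose, beside 19% and 18.9% of all genes or probes. SDS3, an Rpd3L subunit gene, was at -1.99, -1.08 and -0.73. SAP30, another, averaged -0.84 and was not called without array 2 (limma adjusted p = 0.296). With slide as a fixed block SDS3, SAP30, UME1 and EAF3 lost their calls. NAD synthesis had 7 of 12 genes lower (58.3%, beside 19% of all genes or probes). They were led by BNA5 at -1.56 and the nicotinic acid transporter gene TNA1 at -1.41. The 1 higher gene was PNC1, at 1.61, -0.19 and 1.43. PNC1 lost its call without array 1 (0.62, limma adjusted p = 0.236) and without array 3 (0.71, 0.163). With slide as a fixed block TNA1 was at -0.46 (limma adjusted p = 0.695), and BNA1, BNA4, BNA6, NPT1, QNS1, TNA1 and PNC1 lost their calls.

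The machinery of growth changed little on average and differently between arrays. Of 136 cytoplasmic ribosomal protein genes 9 rose (6.62%) and 9 fell (6.62%), below the 18.9% and 19% of all genes or probes. The list's median was 0.10, from medians of 0.89, -0.56 and -0.03 on the separate arrays. It was -0.29 without array 1 and -0.40 with a dye term, so this list has no stable direction here. RPL7B was at -2.01, -3.23 and -2.60 and RPL8A at -1.62, -1.62 and -1.28, both called lower, while RPS12 at 2.79, 1.41 and 0.35 was called higher and turned to -0.56 with a dye term. Ribosomal protein genes are mostly in near-identical pairs, which a probe may not separate. Of 118 ribosome biogenesis genes 22 fell (18.6%), near the 19% of all genes or probes, and none rose, with a median of -0.33. NOP1, the fibrillarin gene, was at -1.72, -1.12 and -1.46.

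Histone genes also split by array, with list medians of 1.10, -0.36 and -0.24. Of them 1 of 10, HHT2, was called higher (10%, beside 18.9% of all genes or probes). Mitochondrial ribosomal protein genes had 23 of 57 higher (40.4%) and 1 lower, with array medians of 0.95, 0.13 and 0.43. Proteasome genes had 19 of 33 higher (57.6%) and none lower, with array medians of 0.65, 0.26 and 0.66. PRE7, a core particle subunit gene, was at 1.35, 0.86 and 1.25, and RPN6, a lid subunit gene, at 1.51, 0.77 and 1.14. Of 26 purine and pyrimidine genes 14 fell (53.8%) and 4 rose (15.4%), beside 19% and 18.9% of all genes or probes. FUR1, the uracil phosphoribosyltransferase gene, was at -2.80, -2.43 and -3.0 and ADE12, an AMP synthesis gene, averaged -2.05. The list's median was -0.78, and 0.07 with slide as a fixed block.

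**Figure D3:**
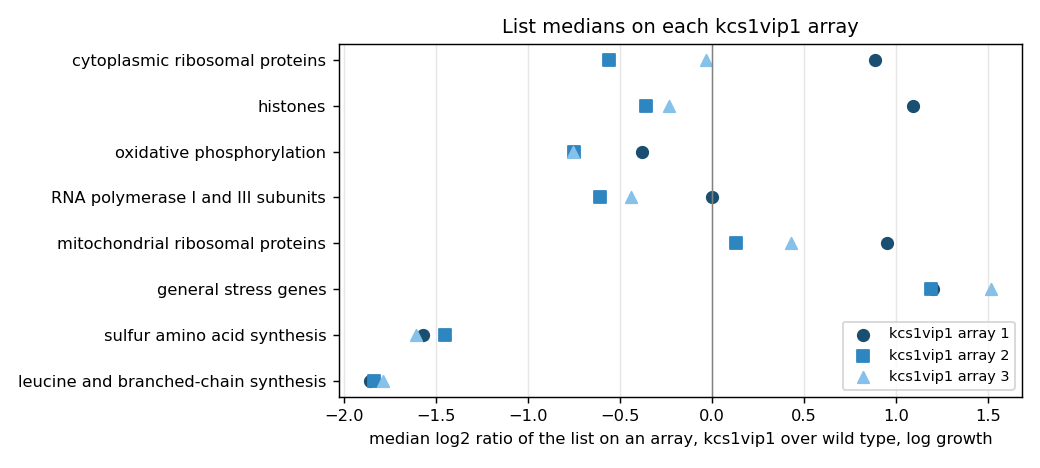
Median log2 ratio of 8 gene lists on each of the 3 kcs1vip1 arrays (x axis). The leucine, sulfur and general stress medians lie close together, while the ribosomal protein median is 0.89, -0.56 and -0.03 and the histone median 1.10, -0.36 and -0.24.

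Regulators of stress and growth signalling had 6 of 31 members higher (19.4%) and 4 lower (12.9%), the first share near and the second below those of all genes or probes (18.9% and 19%). RIM15, a kinase gene that links nutrient signals to quiescence, was at 2.30, 1.85 and 1.58. PDE1, a cAMP phosphodiesterase gene, averaged 1.23 and YAP1, an oxidative stress transcription factor gene, 1.21. RAS1, a GTPase gene of the cAMP pathway, was at -1.20, -1.44 and -1.37. The 3 values of each of RIM15 and RAS1 lie on 1 side of 0, and both were called (limma adjusted p = 3.26e-10 and 4.85e-07). MSN2 and MSN4, the general stress transcription factor genes, averaged 0.20 and 0.45 and were not called.

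Of 22 tested phosphate genes 9 fell (40.9%), 1 rose (4.55%) and 12 were not called, beside 19% lower and 18.9% higher of all genes or probes. GIT1, a glycerophosphoinositol transporter gene, was at -4.0, -3.40 and -3.49. PHO12 and PHO11, near-identical acid phosphatase genes that a probe may not separate, were at -2.71, -2.70 and -2.84 and at -2.17, -2.35 and -2.24. PHM6, of unknown function, was at -2.37, -2.72 and -2.77 and PHO5, the main repressible acid phosphatase gene, at -2.20, -1.87 and -1.76. The arrays differ little for each gene and none reaches 0. The gene that rose was PHO87, a low-affinity transporter gene, and the list's median was -0.54. PHM6 and PHO5 had limma adjusted p of 0.0214 and 0.0486, and both lost their calls when any 1 of the 3 arrays was left out. Their estimates then ranged from -2.745 to -2.545 and from -2.035 to -1.815. The standard deviations over the 3 arrays were 0.218 and 0.229, but the test uses the spread of all groups. Both kept their calls with the 3 arrays fitted alone and lost them with slide as a fixed block and with a dye term. PHO84, the high-affinity transporter gene, averaged -0.78 and was not called. Of the regulators, PHO4, the transcription factor gene of the pathway, was at -2.27, -1.67 and -1.52 (limma adjusted p = 4.22e-08), PHO85 averaged -0.44 and PHO80 0.53, and PHO81, the inhibitor gene, 0.30, which was not called.

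The next comparisons asked where the strain without both kinases differs from strains lacking 1 enzyme of the pathway. Each is the difference of 2 ratios over wild type, and the kcs1vip1 arrays share no slide with the vip1, kcs1 or arg82 arrays, so slide and genotype cannot be told apart in a difference of these means. All these ratios are over the wild type strain, and the mutant RNA was in Cy5 throughout. Genes named for a difference were picked as the most extreme called ones of that difference. For them, groups that do not overlap are a description and no separate support.

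Between kcs1vip1 and vip1, 1639 of 5396 genes or probes differed (30.4%), of which 845 (15.7%) were higher and 794 (14.7%) lower in kcs1vip1. Of 27 iron genes 21 were higher and 1 lower in kcs1vip1. FIT3 was at 2.75, 3.85 and 4.05 in kcs1vip1, against -1.41 and -1.58 in vip1. FIT2 was at 6.14, 4.96 and 5.77 in kcs1vip1, against -0.19 and 0.15 in vip1. The groups do not overlap for either gene, and the differences were 5.05 (FIT3, limma adjusted p = 3.36e-09) and 5.64 (FIT2, 1.61e-08). Leaving out vip1 array 1 or 2 lowered the count of all calls to 744 or 951, and leaving out kcs1vip1 array 2 lowered it to 1019.

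Leucine genes set the pair apart in the other direction. LEU1 was at -6.0, -5.81 and -4.78 in kcs1vip1, against 1.31 and 0.53 in vip1. GDH1 was at -4.32, -3.60 and -4.10 in kcs1vip1, against 0.19 and 0.26 in vip1. The vip1 values sit above wild type and the kcs1vip1 values far below it (differences of -6.45 and -4.23, limma adjusted p = 1.96e-10 and 6.58e-06). Of 13 leucine and branched-chain genes 7 were lower in kcs1vip1 than in vip1. General stress genes had 37 of 56 higher and none lower in kcs1vip1 than in vip1, cell wall genes 16 of 32 higher and 1 lower, and a-cell genes 5 of 6 lower.

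Ribosomal protein genes had 49 of 72 tested members lower and none higher in kcs1vip1 than in vip1. Their medians were 0.10 in kcs1vip1 over 136 genes and 1.78 in vip1 over 72 genes, since fewer of them had values on both vip1 arrays. RPL21A was at -0.96, -1.74 and -0.02 in kcs1vip1, against 4.56 and 4.30 in vip1, a difference of -5.34 (limma adjusted p = 1.77e-09). The groups do not overlap. Of 22 phosphate genes 6 were higher in kcs1vip1 than in vip1 and 16 were not called. PHO12 was at -2.71, -2.70 and -2.84 in kcs1vip1, against -4.65 and -3.95 in vip1.

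Between kcs1vip1 and kcs1, 399 of 5724 genes or probes differed (6.97%), of which 210 (3.67%) were higher and 189 (3.3%) lower in kcs1vip1. The 2 kcs1 arrays differ from each other. KCS1 was at -5.29 on kcs1 array 1 and at -0.30 on kcs1 array 2, and without array 2 the count was 152. IPK1 was at -2.87 on that second array labelled kcs1, and the KCS1 level on it goes against its label. FIT2 was at 6.14, 4.96 and 5.77 in kcs1vip1, against -0.28 and -0.27 in kcs1 (difference 5.90, limma adjusted p = 1.16e-08). PIR3 was at 4.17, 6.30 and 3.78 in kcs1vip1, against -0.31 and 0.85 in kcs1. Neither gene overlaps between the groups. HSP12 was at 7.06, 5.71 and 5.56 in kcs1vip1, against 2.46 and 1.35 in kcs1, and its difference of 4.21 was called (limma adjusted p = 0.0126) but not without kcs1 array 2 (3.65, adjusted p = 0.199). Of 28 iron genes 10 were higher in kcs1vip1 than in kcs1 and none lower.

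Phosphate genes held 7 of 22 members lower and none higher in kcs1vip1 than in kcs1. PHO11 was at -2.17, -2.35 and -2.24 in kcs1vip1, against 4.03 and 0.16 in kcs1. PHM6 was at -2.37, -2.72 and -2.77 in kcs1vip1, against 4.05 and -0.03 in kcs1. The kcs1 arrays are far apart, and both lie above every kcs1vip1 array. Without kcs1 array 1 the differences of PHM6, PHO11 and GIT1 were -2.59, -2.41 and -2.88. Those values rest on kcs1 array 2 alone, the array whose KCS1 level goes against its label. With the 2 groups fitted alone PHM6 and PHO11 lost their calls (limma adjusted p = 0.0799 and 0.0808). PHM6 also lost its call with slide as a fixed block (limma adjusted p = 0.198). The same held when any 1 kcs1vip1 array was left out (limma adjusted p from 0.0751 to 0.0937). For a-cell genes, 5 of 7 were lower in kcs1vip1 than in kcs1, and STE2 was at -3.58, -3.18 and -2.72 in kcs1vip1, against -0.85 and 0.81 in kcs1 (difference -3.14, limma adjusted p = 7.19e-06).

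Between kcs1vip1 and arg82, which lacks the kinase upstream of Kcs1 and Vip1, 179 of 5106 genes or probes differed (3.51%), of which 102 (2%) were higher and 77 (1.51%) lower in kcs1vip1. When arg82 array 1 or 2 was left out the count was 46 or 45, with the lone arg82 array assumed to vary like the other groups. Arg82 is also a partner of the arginine-responsive transcription factor complex. ARG3 was at -3.92, -3.59 and -5.10 in kcs1vip1, against 5.81 and 5.32 in arg82. ARG1 was at -3.84, -3.25 and -5.22 in kcs1vip1, against 4.05 and 3.76 in arg82. The strains lie on opposite sides of wild type (differences -9.77 and -8.01, limma adjusted p = 4.18e-14 and 1.36e-10). CAR2 was at 1.08, 2.97 and 2.01 in kcs1vip1, against -3.49 and -3.18 in arg82, the reverse order.

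Outside arginine metabolism, PHO12 was at -2.71, -2.70 and -2.84 in kcs1vip1, against 1.15 and 0.74 in arg82, and 6 of 22 phosphate genes were lower in kcs1vip1 and none higher. PDH1 was at 4.11, 4.28 and 3.74 in kcs1vip1, against 0.05 and -0.08 in arg82 (difference 4.06, limma adjusted p = 5.24e-09). YRO2, which encodes a plasma membrane protein of the Hsp30 family, was at 1.95, 4.27 and 2.79 in kcs1vip1, against -2.0 and -1.85 in arg82. General stress genes were high in both strains, with medians of 1.35 in kcs1vip1 and 1.09 in arg82, and 6 of 51 differed, all higher in kcs1vip1. HSP12 was at 7.06, 5.71 and 5.56 in kcs1vip1, against 5.30 and 4.87 in arg82, and its difference of 1.03 was not called (limma adjusted p = 0.727). The a-cell genes were low in arg82 too. There 5 of 6 tested were called lower than wild type, beside 497 of 5190 genes or probes, with a median of -1.68. Only 1 of 6 was lower in kcs1vip1 than in arg82.

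PDH1 was at 3.74 to 4.28 in kcs1vip1 and near wild type in each single mutant, with values of -0.34 and 0.10 in vip1, -0.50 and 0.30 in kcs1, 0.05 and -0.08 in arg82 and -0.08 and -0.44 in ipk1. It was called higher in kcs1vip1 than in vip1, kcs1 and arg82, and the difference from ipk1 was not tested. Leucine genes were low in ipk1 and arg82 as well. Of the 13 tested, 11 were called lower in ipk1 (median -2.055) and 12 in arg82 (median -1.75). In kcs1 5 were called lower (median -0.975) and in vip1 2 (median -0.175). Of all genes or probes, 689 of 5622 were lower in ipk1 and 497 of 5190 in arg82. In kcs1 it was 11 of 5912 and in vip1 542 of 5437. LEU1 was at -6.0 to -4.78 in kcs1vip1, beside -4.23 and -6.05 in ipk1, and OAC1 was at -5.71 to -5.31 in kcs1vip1, beside -4.12 and -4.98 in ipk1. The first ipk1 array shares its slide with kcs1vip1 array 1 and the second with kcs1vip1 array 2.

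**Figure D4:**
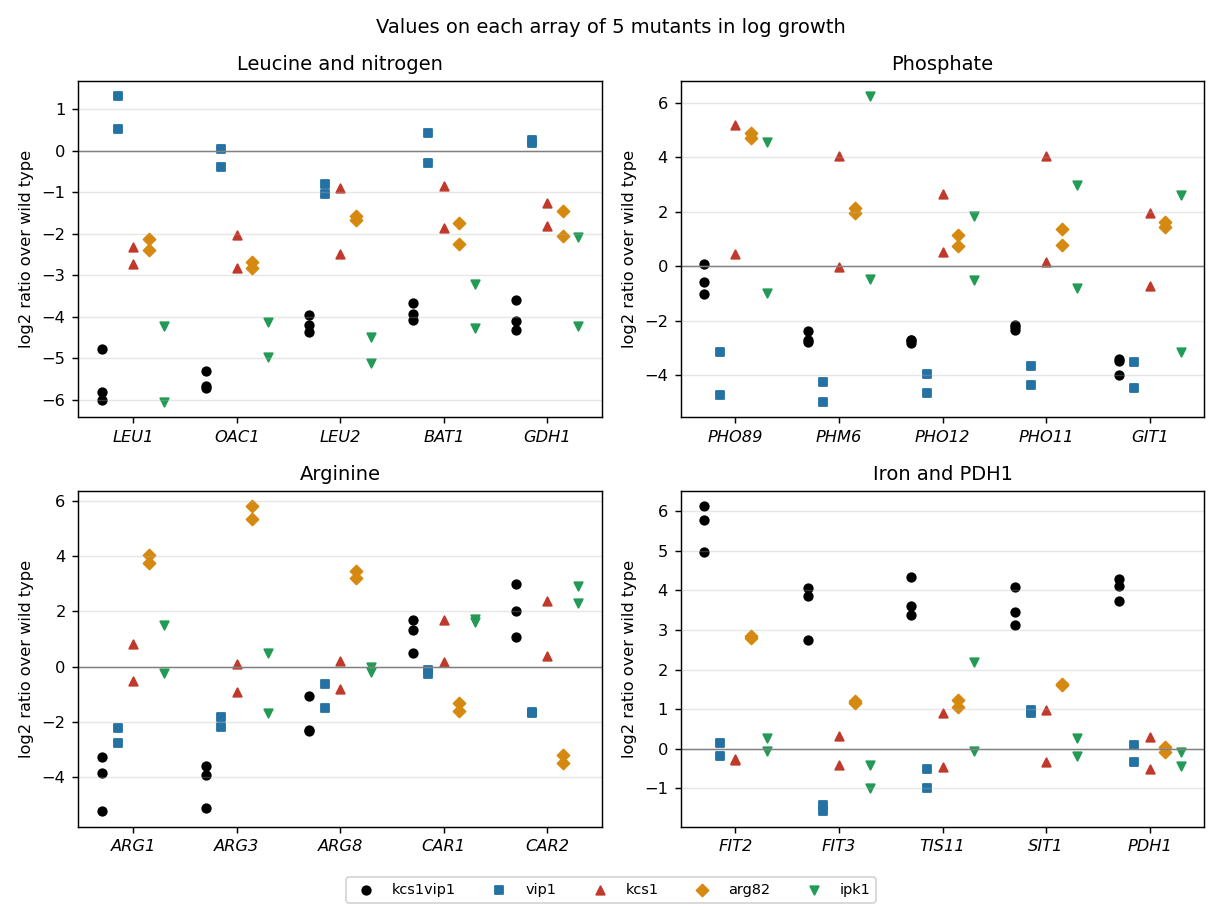
Log2 ratio over wild type on each array (y axis) for 20 genes in kcs1vip1 (3 arrays) and in vip1, kcs1, arg82 and ipk1 (2 arrays each), all in log growth. ARG1, ARG3 and ARG8 lie below 0 in kcs1vip1 and at 3.22 to 5.81 in arg82, PHM6, PHO11 and PHO12 have their lowest values in vip1, and PDH1 is at 3.74 to 4.28 in kcs1vip1 and between -0.50 and 0.30 in the other strains.

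The last comparison asked whether the strain difference seen in log growth was the same after 20 min in 0.375 M KCl. The KCl arrays compare kcs1vip1 in KCl with wild type in KCl, so neither RNA is shared with the log arrays. Of 5714 genes or probes tested, 1554 (27.2%) had a different ratio, 768 (13.4%) higher and 786 (13.8%) lower in KCl than in log growth. Of the slides, 2 held both a KCl and a log array of kcs1vip1. All 765 genes called higher in KCl with a value on both slides were higher on both, and all 784 called lower were lower on both. Those slides carry arrays that made the calls, so the direction there is a description and no separate support.

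General stress genes led those with a lower ratio in KCl. HSP12 was at 0.58, 0.37 and -1.54 in KCl, against 7.06, 5.71 and 5.56 in log growth. HSP26 was at -1.96, -2.51 and -3.0 in KCl, against 3.33, 3.19 and 3.59 in log growth. The 2 groups do not overlap, and the differences were -6.31 (HSP12, limma adjusted p = 9.02e-06) and -5.86 (HSP26, 1.48e-06). Of 59 general stress genes 48 had a lower and 1 a higher ratio in KCl, and the list's median was -0.77 in KCl and 1.35 in log growth. In wild type cells KCl over log growth gave a median of 4.89 for these genes, with 58 of 59 called higher, beside 29.6% of all genes or probes tested. HSP30 was above wild type in both conditions, at 4.66, 6.93 and 6.25 in KCl, against 3.78, 5.34 and 4.52 in log growth (difference 1.40, limma adjusted p = 0.117).

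Ribosome biogenesis genes had the opposite pattern. NOP7, a large-subunit assembly gene, was at 4.18, 3.79 and 4.14 in KCl, against -0.59, -0.57 and -0.49 in log growth (difference 4.59, limma adjusted p = 1.38e-10). LTV1, a small-subunit export gene, was at 5.03, 3.75 and 4.63 in KCl, against 0.31, -0.88 and -0.17 in log growth. Both genes were within 1 log2 unit of wild type before stress and at least 3.75 above it in KCl. Of 116 tested genes 104 had a higher ratio in KCl and none a lower one, and the median was 2.11 in KCl and -0.33 in log growth. Over log growth, wild type cells in KCl had a median of -4.11 for this list. HXT4, a high-affinity glucose transporter gene, was at 0.62, 2.45 and 3.00 in KCl, against -3.58, -1.99 and -1.56 in log growth.

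**Figure D5:**
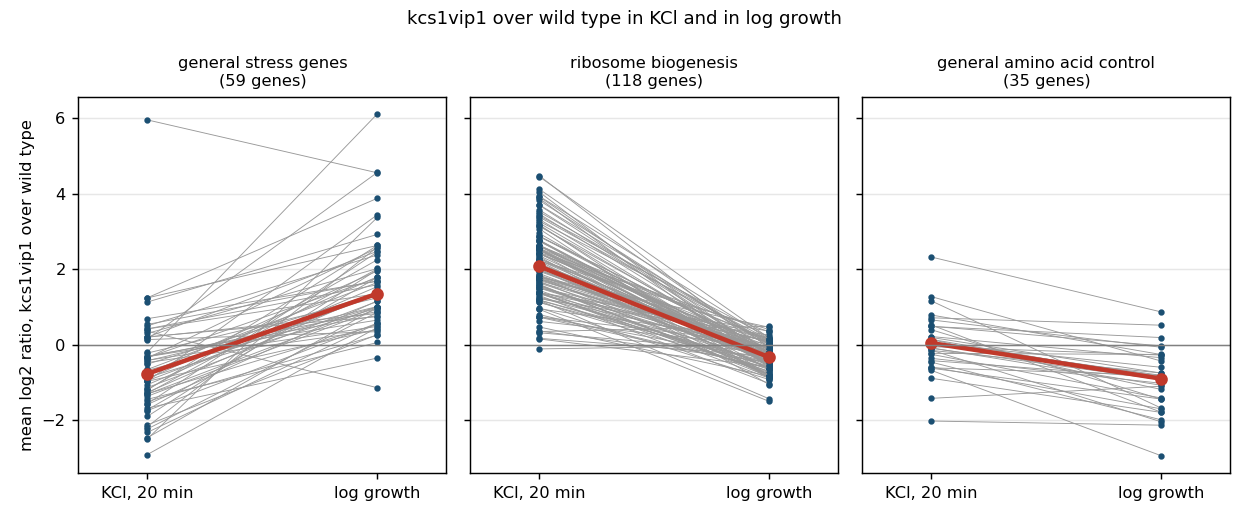
Mean log2 ratio of kcs1vip1 over wild type (y axis) in KCl (left) and in log growth (right) for each gene of 3 lists, joined by grey lines, with the list's median in red. The general stress median is -0.77 in KCl and 1.35 in log growth, and that of general amino acid control is 0.04 in KCl and -0.90 in log growth, while all ribosome biogenesis genes but 1 lie above 0 in KCl and most lie below 0 in log growth.

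LEU1, BAR1 and PDH1 lay far from wild type in both conditions. LEU1 was at -5.49, -5.33 and -5.29 in KCl, against -6.0, -5.81 and -4.78 in log growth, and BAR1 was at -5.16, -4.92 and -4.70 in KCl, against -5.11, -4.58 and -3.96 in log growth. The KCl and log values of both genes overlap, and neither difference was called (limma adjusted p = 0.84 and 0.719), which does not show that the ratios are equal. PDH1 was at 3.76, 3.05 and 3.37 in KCl, against 4.11, 4.28 and 3.74 in log growth, and was not called either. Iron genes were mixed, with 13 of 28 lower and 2 higher in KCl. SIT1 was at -0.38, -0.02 and -0.29 in KCl, against 3.46, 4.10 and 3.13 in log growth, while FIT3 was at 2.41, 2.67 and 3.37 in KCl, against 2.75, 3.85 and 4.05 in log growth. Of 35 amino acid genes under general control 21 had a higher ratio in KCl and none a lower one, with a median of 0.04 in KCl and -0.90 in log growth.

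Set side by side gene by gene, 1088 of the 1091 genes or probes higher in log growth were also tested in KCl. Of these, 473 (43.5%) were called higher in KCl too and 126 (11.6%) lower, beside 24.8% and 25.6% of all tested in KCl. The 473 are 33% of the genes called higher in KCl. Of 1087 lower in log growth, 614 (56.5%) were called lower in KCl and 112 (10.3%) higher. The 614 are 41.5% of the genes called lower in KCl.

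The array of kcs1vip1 in KCl over kcs1vip1 in log growth allows the log ratio to be estimated without the log arrays, as the wild type KCl mean plus the kcs1vip1 KCl mean minus that array. It rests on 1 array, since the labels of the second array with that title disagree, and has no test. The estimate was 4.95 for FIT2, 3.87 for PDH1, -4.37 for BAR1, -4.05 for ARG3 and -3.80 for GIT1, beside log means of 5.62, 4.04, -4.55, -4.20 and -3.63. For the phosphate genes PHO11, PHO12, PHO5 and PHM6 it was -0.78, -1.66, -1.17 and -2.90, beside log means of -2.25, -2.75, -1.94 and -2.62. Among stress genes it was 2.47 for HSP12, 1.05 for HSP26, 1.91 for SPI1 and 0.50 for DDR2, beside log means of 6.11, 3.37, 3.44 and 4.56. It had the opposite sign for CTT1 (-0.60), GRE1 (-1.24), TKL2, a transketolase gene (-1.47), and TDH3 (-0.60), beside log means of 1.95, 2.01, 2.46 and 1.93. As further examples, it had the opposite sign for URA7 (0.62), RPC37 (1.45) and UGA2 (-0.11), beside log means of -1.32, -1.19 and 1.35. It was above the log mean for HSP42, at 2.08 beside 1.54, and for HSP82, at 1.43 beside 1.18.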

How the data were processed

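RNA of 54 two-colour array samples in 27 groups entered the model, and 1 array, whose title (kcs1vip1 in KCl over kcs1vip1) and channel labels (both RNAs in KCl) disagree, did not. The deposited values are log2 ratios of sample over reference RNA, 1 column per array. Background correction and normalization are not given in the sources used here, and the log base is read from the range of the values, not stated. The direction follows from the dyes per the labels, and KCS1 and VIP1 are far below 0 in kcs1vip1. Values were taken as deposited, without the 61 control spots. Of 6256 probes, 4075 have 1 gene symbol and 2181 none, 129 symbols were updated through RefSeq synonyms, and probes of 1 symbol were averaged, leaving 6249. In 3 columns with many decimals 407 exact zeros were set to missing, none in the kcs1vip1 log arrays. The number of arrays limits the precision.

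limma 3.58.1 in R 4.3.3 fitted 1 mean per group over all 54 arrays, with eBayes (prior degrees of freedom 4.63, prior SD 0.369). Comparisons were the kcs1vip1 mean against 0 and its differences from vip1, kcs1, arg82 and kcs1vip1 in KCl. A gene was tested with at least 2 values a side (where leaving out an array left 1, that array was assumed to vary like the other groups), adjusted by Benjamini-Hochberg per comparison and called at an adjusted p under 0.05. In data simulated for kcs1vip1 over wild type, 98 of 100 changes of 2 and 75 of 100 changes of 1 log2 unit were called. For changes of 1 it was 27 of 96 against vip1, 43 of 100 against kcs1, 32 of 91 against arg82 and 41 of 100 for KCl minus log growth. The simulated noise was independent, without slide or dye effects, so recovery in the real data may be lower.

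Named genes are the 20 highest and 20 lowest with 3 values of 1 sign, the 6 highest and 6 lowest of each difference, all members of lists of up to 15 genes, the 6 largest called members of longer lists, and the neighbours of KCS1 and VIP1. SER3, GCN4, FET3, FTR1, ISU1, GSY1, TDH2, NDE2, PHO84, PHO87, MSN2, MSN4 and the genes along the chromosomes were chosen after their values were seen. The group, its gene lists and the rules were chosen with earlier results of these data known. Alternatives were centring, scaling, slide as a random or fixed block, a dye term, robust moderation, zeros kept, a gene filter, the arrays fitted and leaving out each array.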

Additional observations from a re-analysis of the deposited data

Results flagged for a closer look

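The difference between KCl and log growth in the kcs1vip1 over wild type ratio was itself tested, and 1554 of 5714 genes or probes passed (limma, adjusted p under 0.05). The 6 highest were LTV1 (4.72), NOP7 (4.59), HCA4 (4.57), URA7 (4.50), DHR2 (4.49) and HXT4 (4.40), given as the KCl log2 ratio minus that of log growth. LTV1, NOP7, HCA4 and DHR2 serve ribosome assembly, URA7 encodes a CTP synthase and HXT4 a glucose transporter. On the 2 slides that hold both groups, the difference was 4.72 and 4.63 for LTV1 and 4.20 and 4.44 for HXT4. The 6 lowest were HSP12 (-6.31), HSP26 (-5.86), TDH1 (-5.16), HXT5 (-4.75), DDR2 (-4.41) and SPI1 (-4.41). On the same 2 slides the difference was -6.48 and -5.34 for HSP12 and -3.79 and -6.18 for TDH1. Groups of 3 arrays were not examined for outlying arrays by a formal rule.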

How the results depend on the processing

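For kcs1vip1 over wild type the count of calls was 557 with slide as a fixed block and 1108 with the 3 arrays fitted alone, and 1459 to 1760 when 1 array was left out. For kcs1vip1 minus vip1 it was 944 with the 2 groups alone and 744 to 1681 when 1 array was left out. For kcs1vip1 minus kcs1 it was 221 with arrays scaled to equal spread, 214 with slide as a fixed block, 49 with the 2 groups alone and 152 to 374 when 1 array was left out. Without 4 doubted arrays, an alternative chosen after seeing the data (kcs1 array 2, both kcs1vip1 H2O2 arrays and the kcs1vip1 heat array), it was 150. For kcs1vip1 minus arg82 it was 106 with scaling, 63 with the fixed slide block, 67 with the 2 groups alone and 45 to 174 when 1 array was left out. For KCl minus log growth it was 972 with scaling, 929 with the 2 groups alone and 1201 to 1633 when 1 array was left out. Signs turned for IPK1 (-1.44), RPC40 (0.10) and ADE2 (0.14) with the fixed slide block and for RPS12 (-0.56) and RPS22A (-0.008) with a dye term. Of the 40 highest and lowest genes, DDR2, GPG1 (adjusted p = 0.0595), TDH1 (adjusted p = 0.0863) and HSP26 lost their calls with the fixed slide block. The cause of these shifts was not tested. With slide as a fixed block, KCl minus log growth, where 2 slides hold an array of each group, gave 1703 calls. No paired analysis was possible by replicate number, because the labels carry none shared between groups.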

Other observations

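Along the chromosomes, runs of 5 neighbouring measured genes were ranked by their median log2 ratio in kcs1vip1 over wild type, a look at the data chosen after values were seen and without a test. Of 3917 runs the lowest was at the right end of chromosome III, with a median of -3.0, and the next run, on chromosome VIII, was at -1.72. The run holds HMRA1, GIT1, PAU3, RDS1 and AAD3. RDS1, which encodes a zinc cluster transcription factor, was at -3.46, -2.57 and -2.97, and AAD3, a putative aryl-alcohol dehydrogenase gene, was at -3.45, -2.49 and -3.49. Both were also low in KCl, at means of -3.40 and -3.25, and nearer to wild type in vip1 (-0.96 and -1.01), kcs1 (-0.17 and 0.02), arg82 (-1.08 and -1.16) and ipk1 (-0.34 and -0.55). PAU3, between GIT1 and RDS1, was at -0.31, -0.06 and -0.54 and was not called, and HMRA1, a silent copy of a mating type gene, was at 1.99, 0.22 and 0.32 and was not called.

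CUP1-1 and CUP1-2, identical copies of the copper metallothionein gene that the probes cannot separate, were at 4.77, 2.07 and 2.11 and at 5.14, 2.06 and 1.77. They were chosen after their values were seen. Array 1 was the highest for both. The mitochondrial gene OLI1 was at 0.71 on array 1 and -13.21 on array 3, with no value on array 2, so its call rests on 1 array.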
